A study of Mus musculus with 6 samples.

Results

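The class II antigen presentation genes examined here were the 7 genes H2-Aa, H2-Ab1, H2-Eb1, H2-DMa, H2-DMb1, Cd74 and Ciita, taken by gene symbol from the count files of the series, which list 46603 genes. All 7 were found once in the files, and 5 of them were among the 15226 genes with enough counts to be tested; H2-Eb1 and Ciita fell below the count filter. Poly(A) RNA was sequenced from EGCs, that is enteric glia grown in culture, derived from neurospheres that were raised from E14.5 C57BL/6J embryonic gut (whole intestine). Of the 6 libraries, 3 came from unstimulated control cells and 3 from cells that received 100 ng/ml of lipopolysaccharide (LPS, from the outer membrane of bacteria) during 12 h; both groups carry no transgene or deletion in the labels. The neurospheres came from dissociated whole intestine and the cultures were not sorted, so a library holds the RNA of every cell type that grew. The comparison asked what activation with LPS does to the RNA of these cells.

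Class II molecules display peptides from endocytosed proteins to CD4+ T cells. An alpha and a beta chain (H2-Aa with H2-Ab1, and H2-Ea with H2-Eb1) form the peptide groove, the invariant chain Cd74 escorts the pair to the endosome and blocks the groove, and the H2-DM dimer of H2-DMa and H2-DMb1 then exchanges the invariant chain fragment for antigenic peptide. Transcription of these genes depends on Ciita, a co-activator without DNA-binding activity of its own, which is recruited by RFX, CREB and NF-Y proteins sitting on the X and Y boxes of class II promoters. Macrophages, dendritic cells and B cells are the classical carriers of class II, and interferon-gamma induces it in many other cells through Irf1 and Ciita. In mice of the C57BL/6 background the H2-Ea gene is not transcribed, so that H2-Eb1 has no partner chain.

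The promoters of H2-Aa, which rose, and H2-Eb1, which could not be tested, are shown because class II transcription runs through short elements close to the start. Upstream sequence from the RefSeq promoter table (GRCm38.p6) was used for 4 of the 7 members, H2-Aa, H2-Eb1, H2-DMa and H2-DMb1. None was found there for H2-Ab1 and Ciita, and Cd74 was not looked up. The 250 bases before the annotated start were searched on both strands for the Y box CCAAT, which reads ATTGG on the opposite strand, and for an X box core written AGNAACNG. Positions are counted from the annotated start, so that -1 is the last base before it. Capitals mark the matches in the sequences of H2-Aa (chr17:34287824-34288073, minus strand) and H2-Eb1 (chr17:34305617-34305866, plus strand), each written 5′ to 3′ on the strand of its gene:
H2-Aa: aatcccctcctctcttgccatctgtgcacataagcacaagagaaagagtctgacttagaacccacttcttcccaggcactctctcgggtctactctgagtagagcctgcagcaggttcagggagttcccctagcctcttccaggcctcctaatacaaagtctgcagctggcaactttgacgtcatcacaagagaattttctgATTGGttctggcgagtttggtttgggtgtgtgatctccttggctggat
H2-Eb1: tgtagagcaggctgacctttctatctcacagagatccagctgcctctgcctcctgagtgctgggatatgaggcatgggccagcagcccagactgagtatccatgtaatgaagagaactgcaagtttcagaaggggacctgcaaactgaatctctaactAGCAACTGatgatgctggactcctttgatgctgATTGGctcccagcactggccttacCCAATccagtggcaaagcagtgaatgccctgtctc

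In H2-Eb1 the X box core AGCAACTG lay at -92 to -85 and was followed after 25 bases by a Y box at -59 to -55, with a further Y box at -35 to -31. In H2-DMb1 the core AGTAACTG lay at -95 to -88 and was followed after 26 bases by a Y box at -61 to -57; these bases lie inside the longer GENCODE model of the gene and are not printed. H2-Aa had its Y box at -48 to -44 and no match to the X box core as written. H2-DMa has 2 starts in RefSeq, the first with a match to neither motif and the second with a Y box at -198 to -194. Among all 32851 promoter entries of the same length, 33.8% held the Y box, 14.5% the X box core and 4.8% both. A match describes the letters only and shows no bound factor.

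Total counts ran from 18775316 to 23664312 per library, and 3 counts, taken as the detection floor, corresponded to between 0.124 and 0.167 CPM (counts scaled to equal library size after correction with TMM factors). With the quasi-likelihood test of edgeR, 1384 of 15226 genes (9.09%) were called higher in LPS and 1022 (6.71%) lower at an adjusted p under 0.05, a split that turned to 1050 higher and 1589 lower with upper-quartile factors. The glial marker Sox10 stood at 88 ± 13.5 CPM at rest and 77.0 ± 1.16 CPM under LPS (SD, n = 3 per group), beside 5837 ± 374.7 and 5516 ± 94.5 CPM of the mesenchymal marker Col1a1, so RNA of other cells accompanied that of glia. Of the 4 mesenchymal markers, Dcn and Pdgfra were called higher (log2 fold changes 0.90 and 0.50, edgeR adjusted p = 0.0118 and 0.0114, each lost in 4 of the 6 fits without one library), and Lum was called lower with the replicate block. In each group the library numbered 3 held the most macrophage RNA. Together, 12 macrophage markers reached 3889, 5013 and 11910 CPM in control replicates 1, 2 and 3, against 4040, 5248 and 19710 CPM under LPS. Most of each sum came from 1 of these markers, Lyz2. In bulk RNA, more cells of a type and more RNA per cell cannot be told apart.

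Apart from the H2-DM chains, class II transcripts were under 1 CPM at rest, and the genes split under LPS. The peptide-binding chains H2-Ab1 and H2-Aa and the invariant chain Cd74 rose, the H2-DM chains H2-DMa and H2-DMb1 were not called, and the low H2-Eb1 and Ciita had more counts in LPS without being testable under the filter. Called higher were 3 of the 5 tested members against 9.09% of all tested genes, and 0 were called lower (also 0 at an unadjusted p under 0.05 and 0 by DESeq2); the median log2 fold change of the 5 was 4.01 against -0.02 for all tested genes. H2-Aa, H2-Ab1 and Cd74 were under 1 CPM in every control library and met the filter through the LPS libraries, so these shares describe the tested members and are no evidence about class II as a group. Counting all 7 members, 4 had CPM values that were higher in each LPS library than in each control library (H2-Aa, H2-Ab1, Cd74 and Ciita), as had 19.3% of all tested genes.

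**Figure D1:**
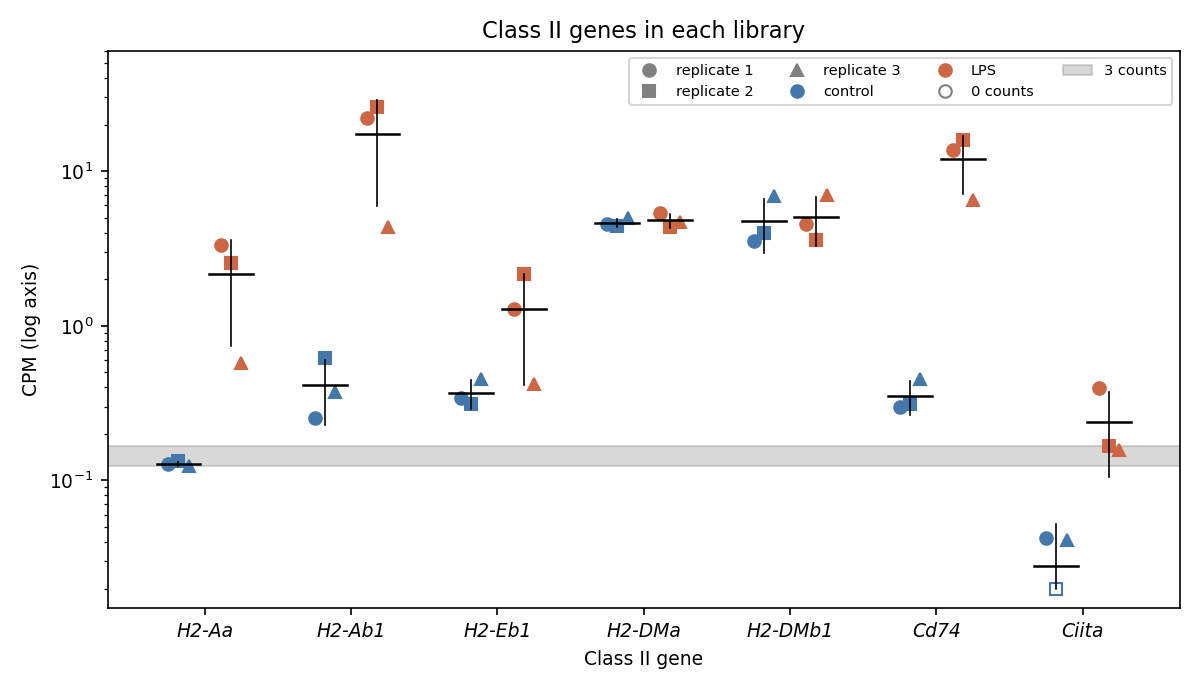
CPM of the 7 class II genes in each library on a log axis, with circles, squares and triangles for replicates 1, 2 and 3, control in blue and LPS in orange, and lines for the mean ± SD (n = 3, cut at the bottom of the axis); the open symbol stands for 0 counts and the grey band for 3 counts. H2-Aa, H2-Ab1 and Cd74 lie apart between the groups, H2-DMa and H2-DMb1 overlap near 5 CPM, and LPS replicate 3 is the lowest LPS library for H2-Aa, H2-Ab1, H2-Eb1 and Cd74.

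Cd74 (ENSMUSG00000024610, chromosome 18, 60803848 to 60812652, GRCm38, plus strand), the invariant chain, gave the firmest change. Control replicates 1, 2 and 3 held 7, 7 and 11 counts of Cd74, the LPS replicates 277, 284 and 124. Every LPS library exceeded every control library by more than 10-fold. In CPM, Cd74 went from 0.354 ± 0.0876 to 12.0 ± 4.89 (SD, n = 3 each), 5.06 ± 0.45 (SE) on the log2 scale with an edgeR adjusted p of 0.00233. The call held in each of its 14 alternatives, with log2 fold changes from 4.81 to 5.60 and adjusted p-values up to 0.0243.

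H2-Ab1 (ENSMUSG00000073421, chromosome 17, 34257689 to 34269419, plus strand), the beta chain of I-A, reached the highest CPM of the 7 genes. It had 6, 14 and 9 counts in the controls and 444, 463 and 83 counts in LPS replicates 1, 2 and 3. The groups did not overlap, and LPS replicate 3 stood well below the other LPS libraries. Mean H2-Ab1 thus moved from 0.415 ± 0.187 to 17.4 ± 11.4 CPM (SD, 3 libraries per group), 5.37 ± 0.82 (SE) on the log2 scale with an edgeR adjusted p of 0.0125. The call was lost without control replicate 1 (adjusted p = 0.0672), without control replicate 2 (0.0652) and with limma-voom (0.0768), while the log2 fold change stayed between 4.97 and 5.83 over the 14 alternatives.

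H2-Aa (ENSMUSG00000036594, chromosome 17, 34282744 to 34287823, minus strand) encodes the alpha chain that pairs with H2-Ab1. It sat exactly at the floor at rest, with 3 counts in each control library, and had 67, 46 and 11 counts in LPS replicates 1, 2 and 3. The lowest LPS library was therefore above the controls, but by few counts. The ratio of summed counts, corrected for library size, was 16.9 (95% exact interval 8.64 to 37.9, counting error only), and edgeR fitted 4.01 ± 0.75 (SE) on the log2 scale (adjusted p = 0.0221). Of the 6 fits that left out one library, only the fit without LPS replicate 3 called H2-Aa (adjusted p = 0.00102); the others gave adjusted p-values up to 0.104.

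H2-Eb1 (ENSMUSG00000060586, chromosome 17, 34305867 to 34316674, plus strand), the beta chain of I-E, was lower and less even. Its counts were 8, 7 and 11 in control and 26, 39 and 8 in LPS, so that LPS replicate 3 lay within the control range and the groups overlapped. The ratio of summed counts was 3.45 (95% exact interval 2.18 to 5.63, counting error only). Fitted without the count filter, H2-Eb1 had a log2 fold change of 1.77 and an edgeR adjusted p of 0.138; without LPS replicate 3 the values were 2.19 and 0.0136. Its partner gene, listed as H2-Ea-ps, had 0 counts in all 6 libraries. The antisense gene Gm20513, which overlaps the start of H2-Eb1, had 0 counts as well.

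Ciita (ENSMUSG00000022504, chromosome 16, 10480059 to 10528418, plus strand), the transactivator, was barely detected. The controls held 1, 0 and 1 counts and the LPS libraries 8, 3 and 3. No control exceeded any LPS library, yet only LPS replicate 1 rose above 3 counts. The ratio of summed counts was 8.60 with an exact 95% interval from 1.98 to 78.0, which covers counting error only. Fitted without the filter, Ciita was not called (log2 fold change 2.84, edgeR adjusted p = 0.104), and none of its 12 adjusted p-values under the alternatives passed the threshold, the lowest being 0.0535. DESeq2 gave it no adjusted p. The opposite-strand gene Dexi overlaps Ciita, and the strand setting of the counting was not given.

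The H2-DM chains, which edit the peptide load of class II molecules, were the most abundant of the 7 genes at rest. H2-DMa (ENSMUSG00000037649, chromosome 17, 34119541 to 34139101, plus strand) had 4.53, 4.38 and 4.96 CPM in the controls and 5.34, 4.35 and 4.71 CPM in LPS. The values of the groups interleaved within a range of 1 CPM. edgeR fitted 0.05 ± 0.16 (SE) on the log2 scale (adjusted p = 0.853), and the ratio of summed counts of 1.04 had a 95% exact interval from 0.883 to 1.23, covering counting error only.

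H2-DMb1 (ENSMUSG00000079547, chromosome 17, 34153072 to 34160230, plus strand) had 3.52, 3.98 and 6.86 CPM in control and 4.55, 3.57 and 6.96 CPM in LPS. Here replicate 3 was the highest library of each group, the reverse of the order seen for H2-Aa, H2-Ab1 and Cd74 in LPS. edgeR fitted 0.07 ± 0.37 (SE) on the log2 scale (adjusted p = 0.919), and the ratio of summed counts was 1.05 with an exact interval from 0.892 to 1.23. The signs of both H2-DM values turned negative with upper-quartile factors or library size alone. At least 257 words of 31 bases occur in transcripts of both H2-DMb1 and H2-DMb2, the neighbouring second beta gene. Reads from such shared stretches may not be placed between the 2 genes. H2-DMb2 itself had 3, 6 and 12 counts in control and 0, 0 and 8 in LPS. H2-DMa overlaps Brd2 on the opposite strand, a gene that went from 246.9 to 337.2 CPM and was called higher (log2 fold change 0.45, edgeR adjusted p = 0.0123); reads of the pair cannot be told apart if strands were not separated.

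Ratios between members of the same library, which do not depend on scaling, describe the same values and are no further support, since the pairs were chosen with the calls known. Cd74 stood at 0.0654, 0.0707 and 0.0917 of the CPM of H2-DMa in the controls and at 2.57, 3.64 and 1.38 of it in LPS. H2-Ab1 stood at 0.0723, 0.156 and 0.0542 of H2-DMb1 in the controls and at 4.83, 7.23 and 0.624 of it in LPS. Neither ratio overlapped between the groups, with an exact two-sided permutation p of 0.1 for each, the smallest that 3 against 3 libraries allow (adjusted p = 0.133 over 4 ratios). H2-Ab1 had 2, 4.67 and 3 times the CPM of its partner H2-Aa in control and 6.63, 10.1 and 7.55 times in LPS (exact permutation p = 0.1, adjusted p = 0.133), where each control ratio rests on 3 counts of H2-Aa. H2-Ab1 and Cd74 kept no such order, with ratios of 0.857, 2 and 0.818 in control and 1.60, 1.63 and 0.669 in LPS (exact permutation p = 1).

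Levels of different genes were set side by side as CPM per kilobase of merged exons. In control the order was H2-DMb1 at 2.85 ± 1.08, H2-DMa at 1.34 ± 0.0867, Cd74 at 0.211 ± 0.0522, H2-Eb1 at 0.189 ± 0.0394, H2-Ab1 at 0.162 ± 0.0727, H2-Aa at 0.0337 ± 0.00118 and Ciita at 0.00293 ± 0.00253 (SD, n = 3). Cd74, H2-Eb1 and H2-Ab1 lay within each other's spread. In LPS the order became Cd74 at 7.15 ± 2.91, H2-Ab1 at 6.76 ± 4.45, H2-DMb1 at 2.99 ± 1.04, H2-DMa at 1.39 ± 0.145, H2-Eb1 at 0.665 ± 0.451, H2-Aa at 0.566 ± 0.372 and Ciita at 0.0252 ± 0.0141 (SD, n = 3). Cd74 and H2-Ab1 did not differ beyond their spread, nor did H2-Ab1 and H2-DMb1, nor H2-Eb1 and H2-Aa. In LPS replicate 3 alone H2-DMb1 stayed first, at 4.14 against 3.87 for Cd74 and 1.69 for H2-Ab1. The length used matters for H2-Aa, H2-Ab1, H2-DMa and Ciita: on the longest protein-coding transcript their LPS means were 1.91, 14.3, 2.39 and 0.0399 CPM per kilobase, which puts H2-Ab1 above Cd74 at 8.51 and H2-Aa above H2-Eb1 at 0.774. In control the same length put H2-Ab1 at 0.343, above Cd74 at 0.251 and H2-Eb1 at 0.220, with H2-DMa at 2.31.

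**Figure D2:**
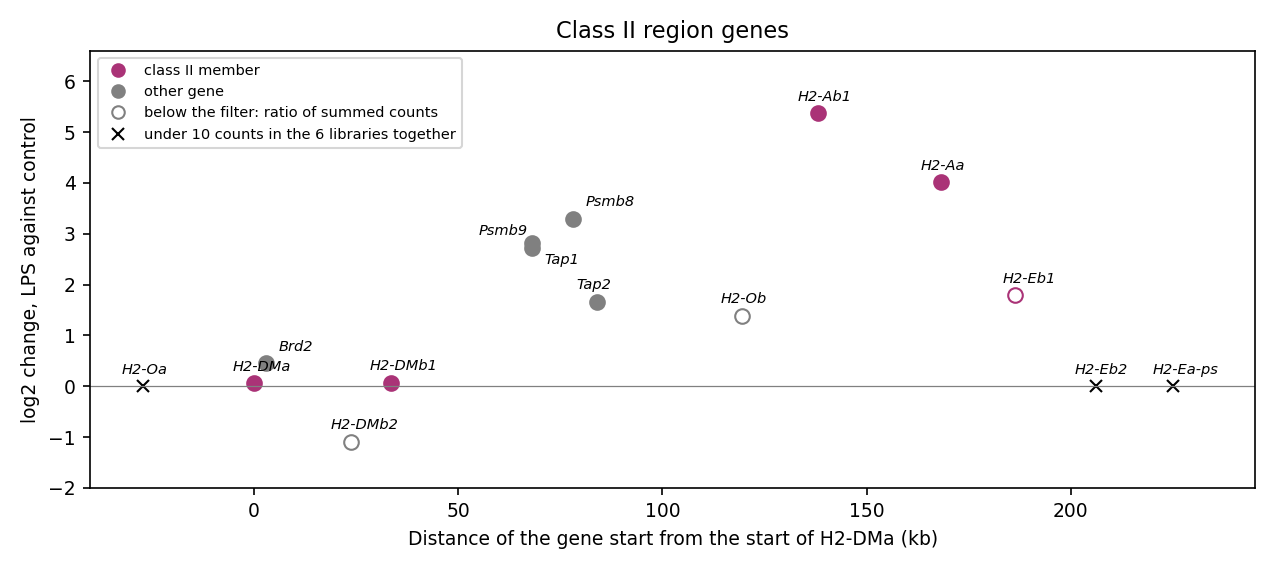
Log2 change between LPS and control (fitted, or from summed counts for open circles) against the distance of each gene's start from the start of H2-DMa, in kilobases, for the coding genes of the class II region and H2-Ea-ps; purple marks the class II members, and crosses genes with under 10 counts in all. H2-DMa and H2-DMb1 lie at 0.05 and 0.07, the antigen-processing genes between them and H2-Ab1 lie from 1.67 to 3.29, and H2-Ab1 and H2-Aa at 5.37 and 4.01.

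Of the 7 members, 5 lie in one stretch of chromosome 17, and their changes followed no common level along it. H2-DMb1 starts 33.5 kb from the start of H2-DMa, H2-Ab1 138.1 kb, H2-Aa 168.3 kb and H2-Eb1 186.3 kb. Between the H2-DM genes, which were not called, and the peptide-binding chains lie Psmb9, Tap1, Psmb8 and Tap2, which serve class I antigen presentation and were all called higher, with log2 fold changes of 2.73, 2.82, 3.29 and 1.67 (edgeR adjusted p = 0.0178, 0.00109, 0.00801 and 0.000684). H2-Ob, a chain of the H2-DM inhibitor H2-O, had 8 counts over the controls, all in replicate 3, and 17 over the LPS libraries. Its partner H2-Oa had 1 and 8 counts. Beyond H2-Eb1, H2-Eb2 had 0 counts in every library.

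The other genes of the pathway were described from a list of 28, of which 27 were in the files and 22 were tested. Called higher were 6 of the 22 (9.09% of all genes) and called lower 1 (6.71% of all genes), with a median log2 fold change of 0.07. The promoter-binding factors, which recruit Ciita, gave 0 calls among 7 with edgeR (1, Nfyc, at an unadjusted p under 0.05, and 1 by DESeq2). Rfx5 had 19.7 ± 2.90 CPM at rest and 21.0 ± 3.45 under LPS, Rfxap at 14.1 ± 0.935 and 14.6 ± 1.23, and Rfxank at 10.8 ± 1.03 and 12.8 ± 0.187 (SD, n = 3 each). Nfya, Nfyb and Creb1 had log2 fold changes of -0.09, -0.04 and -0.04, and Nfyc one of 0.30 (edgeR adjusted p = 0.0562) that was called with the replicate block (0.0347) and with both libraries numbered 3 left out (0.0145). These factors were thus present at rest at levels well above that of Ciita.

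On the interferon-gamma path that leads to Ciita, Jak2, Irf1, Ifngr2 and Jak1 were called higher. Jak2, a receptor-bound kinase, rose by 2.65 (SE 0.28, edgeR adjusted p = 0.00371) with 8030, 7578 and 4083 counts in LPS replicates 1, 2 and 3 against 1232, 1181 and 1441 in control. LPS replicate 3 was its lowest LPS library, as for H2-Aa, H2-Ab1 and Cd74. That library was also the lowest for Irf1 and Jak1 in CPM. For Ifngr2 it was the highest, at 202.1 CPM against 197.3 and 186 CPM in LPS replicates 1 and 2. Irf1, a transcription factor that acts on the Ciita gene, rose by 1.99 (SE 0.15, edgeR adjusted p = 0.00144), with 1738, 1693 and 1505 counts in LPS against 448, 449 and 634 in control. The receptor chain Ifngr2 rose by 0.91 (edgeR adjusted p = 0.00505) and the kinase Jak1 by 0.34 (0.0477), whereas Ifngr1 was not called (0.16, 0.504). The call for Jak1 was lost in 5 of the 6 fits without one library.

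**Figure D3:**
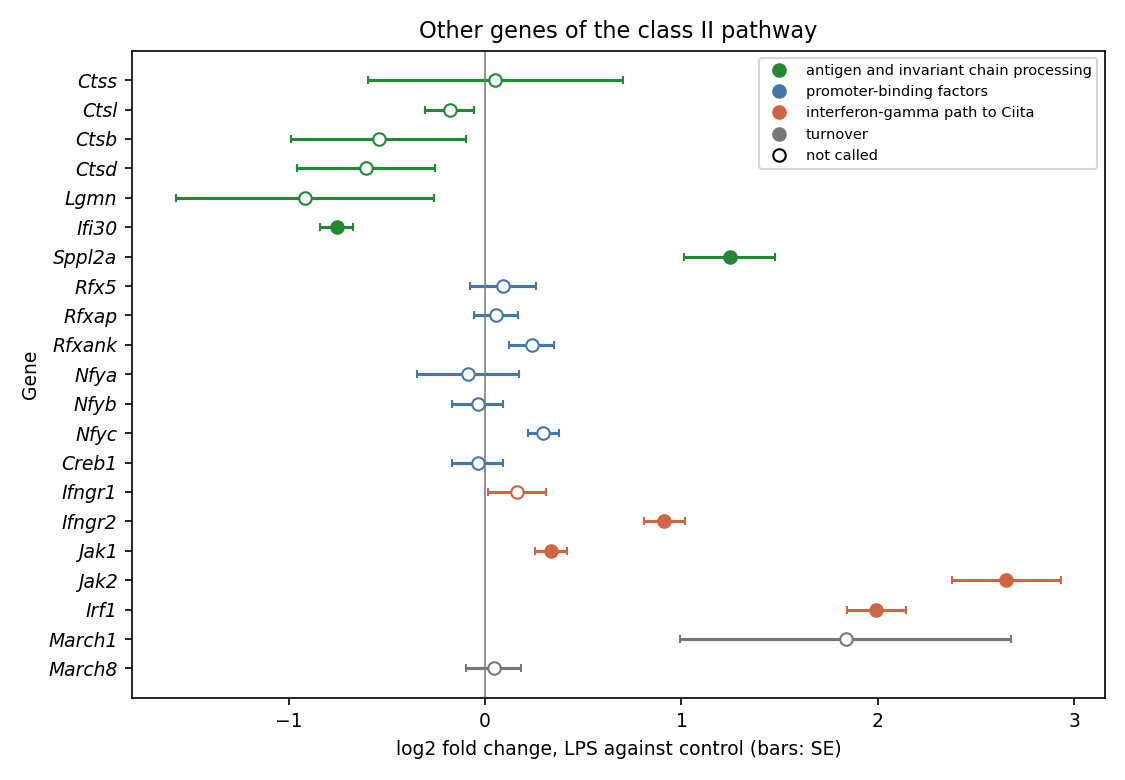
Log2 fold change (LPS against control) with its standard error for tested genes of the class II pathway that are not among the 7 members, coloured by role, with filled circles for genes called at an edgeR adjusted p under 0.05. The promoter-binding factors lie near 0, Jak2, Irf1, Ifngr2 and Jak1 of the interferon-gamma path were called higher, and Sppl2a and Ifi30 were called in opposite directions.

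Genes that process antigen and the invariant chain gave 1 call in each direction among 7, against 9.09% of all genes called higher and 6.71% lower. Sppl2a, the protease that clears the last fragment of Cd74 from the membrane, was called higher by 1.25 on the log2 scale (edgeR adjusted p = 0.022; 115.3 ± 14.1 CPM at rest, 273.3 ± 84.1 CPM under LPS, SD over 3 libraries), a call lost when control replicate 1, control 2 or LPS replicate 2 was left out (adjusted p up to 0.104). Ifi30, which encodes the lysosomal thiol reductase GILT, fell by 0.75 on the log2 scale (SE 0.08, edgeR adjusted p = 0.00455), with 2704, 2608 and 2531 counts in control and 1358, 1097 and 1339 in LPS. The groups of Ifi30 did not overlap, and all 6 fits without one library called it. The invariant chain protease Ctss, at 517.4 ± 247.5 CPM at rest, stood at 536.6 ± 458.7 CPM under LPS (SD over 3 libraries), with replicate 3 the highest in both groups, and was not called. Ctsb, Ctsd and Lgmn had log2 fold changes of -0.54, -0.61 and -0.92 that were not called, but were with the replicate block (edgeR adjusted p = 0.0135, 0.00832 and 0.0118) and with both libraries numbered 3 left out (0.00365, 0.000271 and 0.000658). With the block, 8 pathway genes were called higher and 4 lower, against 15.4% and 14.9% of all genes. Of the ligases that send class II from the surface to degradation, March8 was not called, and March1 had 388, 339 and 2032 counts in LPS against 167, 239 and 550 in control (log2 fold change 1.84, edgeR adjusted p = 0.197 without and 0.0225 with the block).

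The classical class II carriers were then examined through their markers. All 12 macrophage markers passed the filter, 1 was called higher (Adgre1, log2 fold change 2.78, edgeR adjusted p = 0.0452, lost in 4 of the 6 fits without one library), against 9.09% of all genes, and 0 lower (1 at an unadjusted p under 0.05, and 0 by DESeq2). With the replicate block 5 were called higher (Adgre1, Ptprc, Fcgr1, Cd14 and Aif1) and 3 lower (Cd68, Mrc1 and Cx3cr1), against 15.4% and 14.9% of all genes. Mrc1, the mannose receptor, had 4648, 7486 and 18207 counts in control and 188, 186 and 2509 in LPS, and its groups did not overlap (edgeR adjusted p = 0.146 without and 0.0124 with the block). Adgre1 had 19273, 22622 and 70680 counts in LPS, so that LPS replicate 3 was highest for it and lowest for H2-Ab1. The control libraries already held 3889 to 11910 CPM of macrophage markers, beside 0.297 to 0.455 CPM of Cd74. Of 8 dendritic cell markers, Xcr1 and Cd209a had 0 counts in every library and Flt3 and Clec9a at most 3 counts. Ccr7 had 2 counts over the controls and 15 over the LPS libraries, with groups that did not overlap. Batf3 (0.68 on the log2 scale) and Itgax (-2.03) were not called. Zbtb46 was called lower (log2 fold change -0.62, edgeR adjusted p = 0.0265, lost in 5 of those 6 fits). The replicate block called 2 of the 3 tested dendritic markers lower, against 14.9% of all genes. These were Zbtb46 and Itgax (edgeR adjusted p = 0.0107 for Itgax). The summed level of the 8 markers ran from 12.8 to 21.9 CPM in control and from 7.96 to 11.4 CPM in LPS. Among 5 B cell markers, Cd79a had 2 counts in all libraries together and Ms4a1 9. Cd79b had 6, 5 and 5 counts in control and 0, 4 and 14 in LPS. Pax5 was the B cell marker that passed the filter, with 1, 1 and 0 counts in control and 53, 44 and 32 in LPS (log2 fold change 6.04, edgeR adjusted p = 0.00259), which made the B cell sum run from 0.266 to 0.381 CPM in control and from 2.57 to 2.77 CPM in LPS. The 6 glial markers summed to 260.9 to 374.4 CPM in control and 300.1 to 316.5 CPM in LPS, with 1 of 6, S100b, called lower (lost in 4 of those 6 fits). The part of any of these cells in the class II values was not tested.

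**Figure D4:**
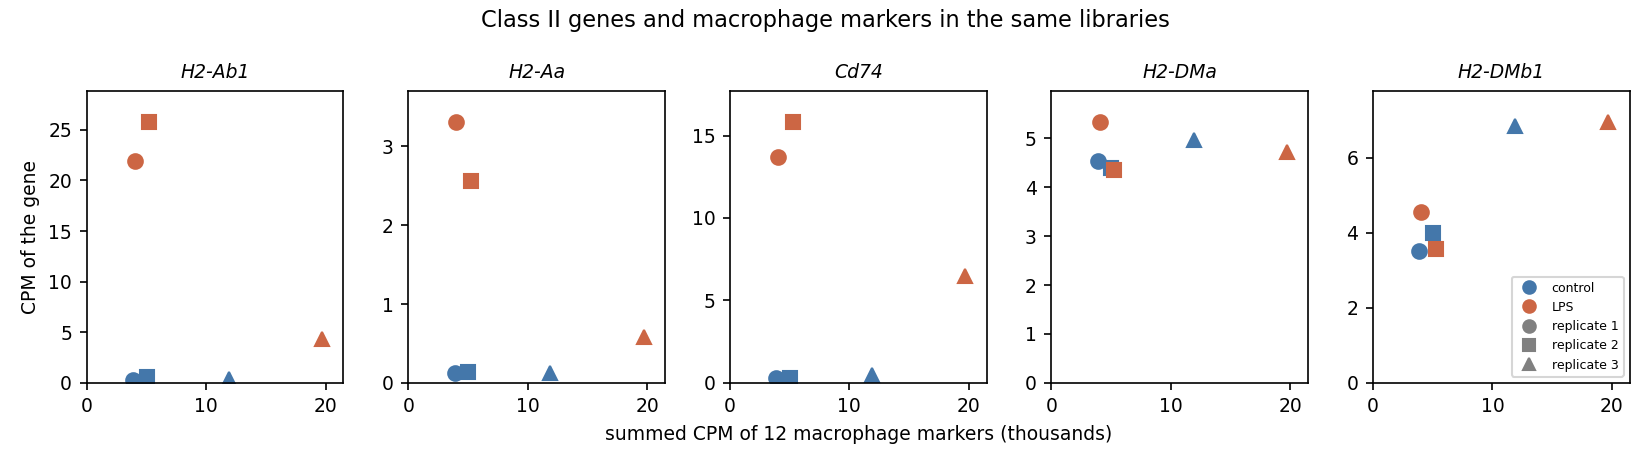
CPM of 5 class II genes against the summed CPM of 12 macrophage markers, in units of 1000 CPM, in the same library (blue control, orange LPS; circles, squares and triangles for replicates 1, 2 and 3). LPS replicate 3, with 19710 CPM of macrophage markers, has lower H2-Ab1, H2-Aa and Cd74 than LPS replicates 1 and 2, which have 4040 and 5248 CPM. Most of each sum came from Lyz2.

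Set against the macrophage markers of the same library, Cd74 amounted to 0.0763, 0.0618 and 0.0382 CPM per 1000 CPM of markers in control and to 3.39, 3.02 and 0.329 in LPS. H2-Ab1 amounted to 0.0654, 0.124 and 0.0312 in control and to 5.43, 4.92 and 0.22 in LPS. Neither overlapped between the groups, with log2 differences of 4.73 and 4.84 (exact two-sided permutation p = 0.1 each, adjusted p = 0.25 over 15 such ratios). H2-Aa overlapped, with 0.0327, 0.0265 and 0.0104 in control and 0.82, 0.489 and 0.0292 in LPS (exact permutation p = 0.2). H2-DMa and H2-DMb1 differed by -0.23 and -0.21 (exact permutation p = 0.8 each). Most of each marker sum was Lyz2, so these are largely ratios to that gene. The choice of marker matters: with Adgre1 alone as the denominator the difference was 2.34 for Cd74 and 2.45 for H2-Ab1, both with overlapping groups (exact permutation p = 0.2 and 0.3), and -2.62 and -2.59 for the H2-DM genes.

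The pattern shared by H2-Aa, H2-Ab1 and Cd74 was low in all controls, high in LPS replicates 1 and 2 and intermediate in LPS replicate 3. Among 11478 tested genes with a mean of at least 5 CPM, those whose log2 CPM over the 6 libraries lay closest to the mean profile of H2-Aa, H2-Ab1 and Cd74 were Ttc39c, Pgam1, Pfkl, Ssr2 and Lbp (Pearson r from 0.998 to 0.999, a description over 6 libraries that share their depth and grouping). Lbp, the LPS-binding protein, had 239.5, 255.0 and 89.1 CPM in LPS replicates 1, 2 and 3 against 13.9 ± 1.04 CPM in control (SD, n = 3). Pfkl and Pgam1, both enzymes of glycolysis, reached 419.7 and 264.2 CPM in LPS replicate 1 but 245.1 and 193.0 CPM in LPS replicate 3.

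**Figure D5:**
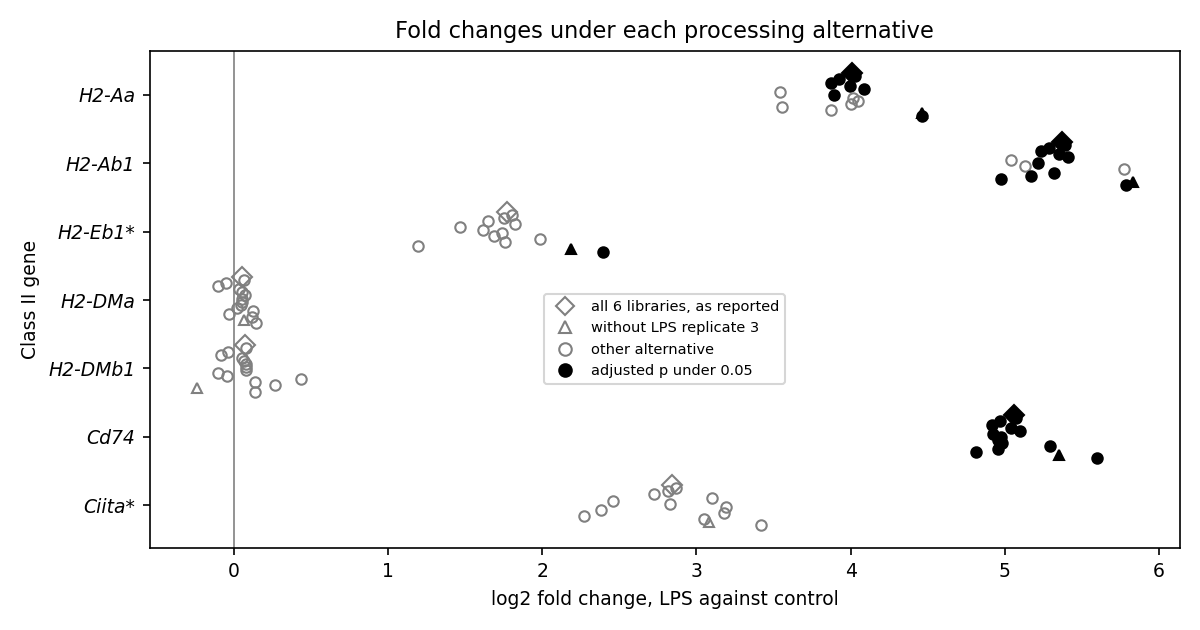
Log2 fold change of each class II gene (LPS against control) with all 6 libraries (diamonds), without LPS replicate 3 (triangles) and under the other alternatives (circles), filled where the adjusted p was under 0.05; asterisks mark the 2 genes fitted without the count filter. Cd74 is called throughout, H2-Ab1 and H2-Aa lose the call in some fits, and H2-DMa and H2-DMb1 stay between -0.24 and 0.44.

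LPS replicate 3 was the lowest LPS library for H2-Aa, H2-Ab1 and Cd74, so their values rise by construction when it is left out. Without it, the log2 fold changes were 5.35 for Cd74, 5.83 for H2-Ab1 and 4.46 for H2-Aa (edgeR adjusted p = 0.000306, 0.000551 and 0.00102), and 4 of 6 tested members were called higher (12.6% of all genes), H2-Eb1 being the fourth. Without both libraries numbered 3, an alternative chosen after the data were seen, the same number was called, against 22.6% of all genes. The count fell to 1 (Cd74) without control replicate 1 (3.03% of all genes), without control replicate 2 (2.44%) and with limma-voom (8.21%), and to 0 of 2 under a filter of 10 counts in every library (8.71%), which H2-Aa, H2-Ab1 and Cd74 cannot pass.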

How the data were processed

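Each library had 1 deposited file of raw counts, which the authors made from poly(A) libraries of a stranded kit. Per the labels, reads were trimmed (cutadapt 1.15, FastX), cleared of contaminants (Bowtie2 2.3.3.1), aligned to GRCm38 (STAR 2.5.2b) and counted (featureCounts 1.5.3). The annotation release, strand setting and rule for multi-mapping reads are not given in the sources used here. Nothing says that replicates were separate cultures, so p-values measure the spread between these samples, which may be technical.

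Genes were filtered (filterByExpr, minimum count 10, minimum total 15), scaled with TMM factors (0.918 to 1.08) and tested with the two-sided quasi-likelihood F-test of edgeR 4.0.16 in R 4.3.3, with group as the only term and Benjamini-Hochberg adjustment over the 15226 tested genes. The SE was taken as the absolute log2 fold change over the root of the F statistic. The code was tested on simulated data. Coordinates and exon lengths are from GENCODE M21 (GRCm38). Same-numbered libraries deviated together (r = 0.513, 0.334 and 0.613, all over 0.1), so the number served as a block in an alternative; this pairing comes from the data, not from the labels, and control 1 with LPS 2 (r = 0.419) and control 2 with LPS 1 (r = 0.323) were about as close. Other alternatives were other scaling and filters, DESeq2 1.42.0, limma-voom (limma 3.58.1) and leaving out libraries. Named genes were all members, called pathway genes, promoter-binding factors, markers as examples and the 5 genes of closest profile; Ctss, Ctsb, Ctsd, Lgmn, March1, March8, Ifngr1 and the genes of the chromosome 17 region were added after their values were seen. Values of 1 pathway gene and 1 marker enter the counts and sums of their lists and are not reported here. Members and lists were chosen with earlier results of these data known. Intervals cover counting error only.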

Additional observations from a re-analysis of the deposited data

How the results depend on the processing

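Cd74 kept its direction and call under all 14 alternatives, and H2-DMa and H2-DMb1 were called in 0 of 15. Among class II members, 0 of 2 were called higher with at least 10 counts in every library (8.71% of all genes), a filter that removes H2-Aa, H2-Ab1 and Cd74 by construction. With limma-voom 1 of 5 was called, Cd74 (8.21% of all genes). The fits without one library called from 1 to 4. The lowest were without control replicate 1 or 2 (3.03% and 2.44% of all genes) and the highest without LPS replicate 3 (12.6%). The members' median log2 fold change of 4.01 was 2.84 with no filter, 0.061 with 10 counts in every library, 3.54 with limma-voom, 3.44 without both libraries numbered 3 and 2.87 to 3.87 without one library; H2-Eb1 enters or H2-Aa, H2-Ab1 and Cd74 leave the tested members in most of these fits. Upper-quartile factors gave -0.049 for H2-DMa and -0.036 for H2-DMb1, scaling by total count alone -0.10 and -0.084, and the fits without one library ranged from -0.028 to 0.12 for H2-DMa and from -0.24 to 0.44 for H2-DMb1. These scalings moved the median of all genes to -0.12 and -0.18.

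Over all genes, upper-quartile factors gave 1589 lower calls beside 1050 higher ones, and scaling by total count gave 2054 beside 986. DESeq2 called 2079 higher and 1673 lower, and with both libraries numbered 3 left out 3498 were higher and 3159 lower. Leaving out one library gave from 379 to 1964 higher and from 112 to 1426 lower, the lowest without control replicate 2. The replicate block raised the calls to 2343 higher (15.4% of all genes) and 2273 lower (14.9%). With the block, 4 of 22 pathway genes were lower, and of 29 markers 11 were higher and 7 lower. The block changed no call among the tested class II members. With both libraries numbered 3 left out, 5 of 22 pathway genes were lower, and of 29 markers 8 were higher and 12 lower. Over all 15466 genes of that fit, 3498 were higher and 3159 lower. Without one library, from 1 to 5 of 29 markers were higher and from 0 to 4 lower. Over all 15531 to 15626 genes of those fits, 379 to 1964 were higher and 112 to 1426 lower. Relative to Adgre1 alone, the log2 differences were 1.06 for H2-Aa, 2.45 for H2-Ab1, -2.62 for H2-DMa, -2.59 for H2-DMb1 and 2.34 for Cd74. Where no construction is named, the cause was not tested. Counts of 3 or fewer limit what can be said of Ciita and of H2-Aa at rest.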
